A study of Mus musculus with 4 samples.

Results

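RNA recovered with an RNA-binding deficient form of Lin28b was examined in mouse cells that the labels call CAFs, cancer-associated fibroblasts, of the pancreas, the stromal fibroblasts of pancreatic tumours. In RNA immunoprecipitation (RIP), an antibody pulls a tagged protein out of a cell lysate and the RNA that comes with it is sequenced beside the RNA of the lysate, the input. The cells were 15376CAFs that overexpressed Flag-tagged Lin28b, as the wild type (Lin28b-WT) or as the mutant (Lin28b-MU), and an anti-Flag antibody was used for both. The libraries were the mutant immunoprecipitate (IP), the mutant input, the wild-type IP and the wild-type input, 1 library each. The residues changed in the mutant, the number of clones and any untransfected or untagged control are not given in the sources used here. All values below therefore describe single libraries: no difference has a replicate check and none was tested.

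The genes examined were those with a level of at least 1 in the higher of the mutant IP and the mutant input, 11160 of the 14427 genes in the mutant table and of 15704 genes in both tables together. The other 3267 genes of the mutant table lay below that level. Levels were read as FPKM, fragments per kilobase of transcript scaled to the size of the library. The ratio of a gene is log2 of (IP level + 0.01) over (input level + 0.01). A gene is called enriched where the ratio reached 2-fold, and lower where the input exceeded the IP by 2-fold. Sites were taken from the authors' mutant peak list of 15931 peaks, stretches of the genome where reads of the IP pile up, out of 27843 peaks in the lists of both IPs.

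Lin28b is a small RNA-binding protein with a cold shock domain and a pair of zinc knuckles. It is known for binding the precursors of the let-7 microRNAs, in which the zinc knuckles contact a GGAG sequence, and for binding many mRNAs. Mutants that have lost RNA contacts are used in RIP as a control, because RNA found with them comes with the beads, the antibody, the tag, partner proteins or residual binding. Which of these sources supplied RNA here was not tested.

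The levels summed to 207301 in the mutant IP and 313359 in the mutant input. The levels of short single-exon pseudogenes fell on whole multiples of a fixed step, from which a depth of 3.25 Gb of aligned bases in the mutant IP and 2.86 Gb in the mutant input was inferred. On that reading, and with the 150-base reads that the multiples point to, a level of 1 stood for 21.6 reads per kilobase of RNA in the IP, against 19.1 in the input. A 1-kilobase RNA at a level of 1 in the IP would then have an exact Poisson 95% interval of 0.637 to 1.54, which covers counting error only. The 6 epithelial genes listed out of 8 all stood at 1 or above in the mutant input, among them Krt8 at 494 FPKM. Of 14 fibroblast markers 6 were listed and 3 reached 1, with Vim at 547, Sparc at 83.8 and Fn1 at 74.6. Col1a1 stood at 0.404, Acta2 at 0.524 and Pdgfra at 0.860, so 3 of the defining fibroblast genes were listed below 1. Among the markers of other cells, 1 of 6 leukocyte, 0 of 4 endothelial and 1 of 5 acinar genes were listed. Lin28b RNA itself was higher in both mutant libraries (30.01 FPKM in the input, 36.7 in the IP) than in the wild-type ones (13.8 and 8.99).

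More genes were depleted from the mutant IP than enriched in it. Of the 11160 genes, 605 were enriched (5.42%), 3845 were lower (34.5%) and 6710 lay within 2-fold, with a median ratio of −0.53. The median depends on the scale of the libraries: when ratios were centred on it, 1728 genes were enriched and 2416 lower, and the enriched share of the calls went from 13.6% to 41.7%. A level is a share of its library, so less of an RNA and more of all others cannot be told apart. In the wild-type table, filtered in the same way, 730 of 11273 genes were enriched (6.48%) and 2211 lower (19.6%). Of the 605 genes enriched with the mutant, 558 also reached a level of 1 in a wild-type library, and 179 of these were enriched there too.

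Most of the genes recovered best encode very large proteins. Among protein-coding genes with at least 10 FPKM in the higher library, leaving out predicted genes (symbols of the Gm and Rik kind), the 15 highest ratios lay between 4.58-fold and 7.89-fold above input. Pdik1l, a kinase gene, had 29.2 FPKM in the mutant IP against 3.69 in its input, and 8.62 against 3.93 in the wild type. Ptpn4, a protein tyrosine phosphatase gene, had 22.3 FPKM against 4.33 in the mutant and 6.38 against 2.76 in the wild type. Tfrc, the transferrin receptor gene, stood at 301 and 62.4 in the mutant and at 82.5 and 37.8 in the wild type. In each of these genes the mutant IP held the highest of the 4 levels, and the inputs lay closer together than the IPs. The group also held Atm, Prkdc, Vps13a, Ahnak, Syne2, Atr, Dmxl1, Herc2, Usp9x, Macf1 and Smg1. All 15 carried a mutant peak, from 2 in Pdik1l to 106 in Syne2. Their spans ran from 12.9 kb (Pdik1l) to 335 kb (Macf1), and in the wild type 11 of the 15 were enriched as well, with ratios between 0.52 and 1.61.

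Most of the genes recovered worst encode small proteins. The 15 lowest ratios, by the same limits, lay 14.4-fold to 23.4-fold below input. Atp5e, the epsilon subunit of the mitochondrial ATP synthase, stood at 3.98 in the mutant IP and 93.4 in its input, but at 93.5 and 102 in the wild-type IP and input. Selenom, which encodes a small selenoprotein of the endoplasmic reticulum, stood at 4.21 and 70.1 in the mutant and at 7.96 and 60.9 in the wild type. Rpl34, a ribosomal protein gene, stood at 30.1 and 451 in the mutant and at 130.3 and 445 in the wild type. The mutant IP was the lowest of the 4 libraries in each of them. The respiratory chain genes Ndufb2, Ndufa3, Ndufa7 and Uqcr11, the histone genes H3c7, Hist1h2bp and H4c9, Mrpl58, Chchd7, Serf1 and Tmem256 also belonged to this group. Spans in the group ran from 0.727 to 13.7 kb, none of the 15 carried a mutant peak, and 14 were lower in the wild-type IP too, Atp5e being the exception.

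**Figure D1:**
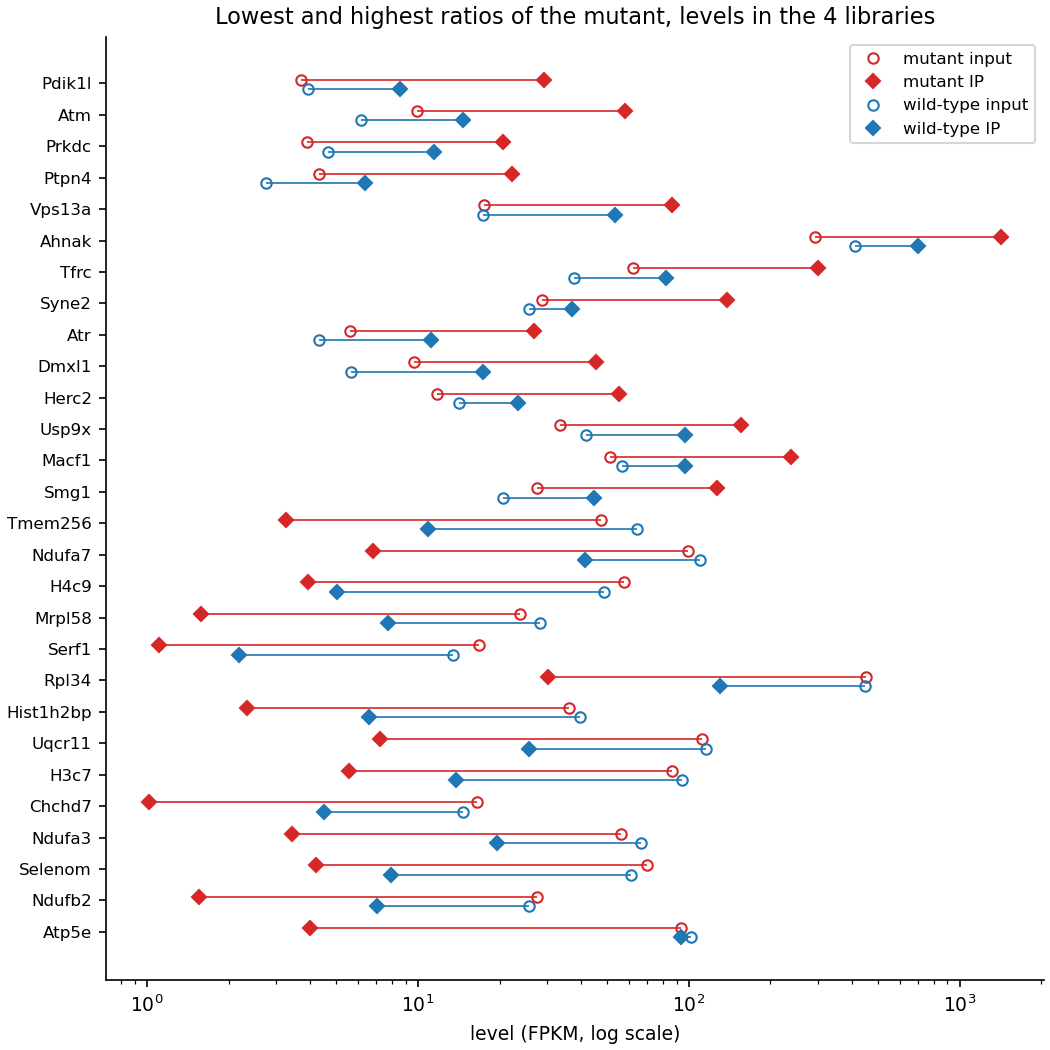
Levels in FPKM, on a log axis, of 14 of the 15 protein-coding genes with the lowest and 14 of the 15 with the highest mutant ratio (at least 10 FPKM in the higher library, no predicted genes), in the mutant input and IP (red) and the wild-type input and IP (blue), 1 library each and no error bars. For Atp5e the mutant IP lies at 3.98 while the other 3 libraries lie between 93.4 and 102.

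The ratio followed the span of the gene, introns included. When the 11160 genes were ordered by span and cut into 10 groups of 1116, the median ratio climbed through all 10 groups, from −2.18 for spans up to 3.51 kb to 0.26 for spans above 109 kb. Of the group with the shortest spans, 81.5% were lower and 2.51% enriched, and of the group with the longest spans, 8.15% were lower and 15.9% enriched. The median span was 69.1 kb for enriched genes, 8.89 kb for lower genes and 22.3 kb for all 11160. The 2 groups with the longest spans held 326 of the 605 enriched genes (53.9%), and the 3 with the shortest held 2246 of the 3845 lower genes (58.4%). In the wild type the same genes went from −1.04 to 0.06, a smaller climb, and this difference was not tested.

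Input level did not follow the same order. Across genes, which are not independent replicates, Spearman's coefficient with the ratio was 0.583 for span and −0.063 for input level (n = 11160), and that between span and input level was 0.020. Within the 10369 protein-coding genes alone, the coefficient for span was 0.575. With the genes in 3 equal groups by input level, medians were −1.99 for the shortest spans and 0.21 for the longest in the group of lowest input, −1.97 and 0.35 in the middle group, and −2.53 and 0.23 in the group of highest input. The span counts introns, and transcript length was not available, so the 2 lengths cannot be told apart here.

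**Figure D2:**
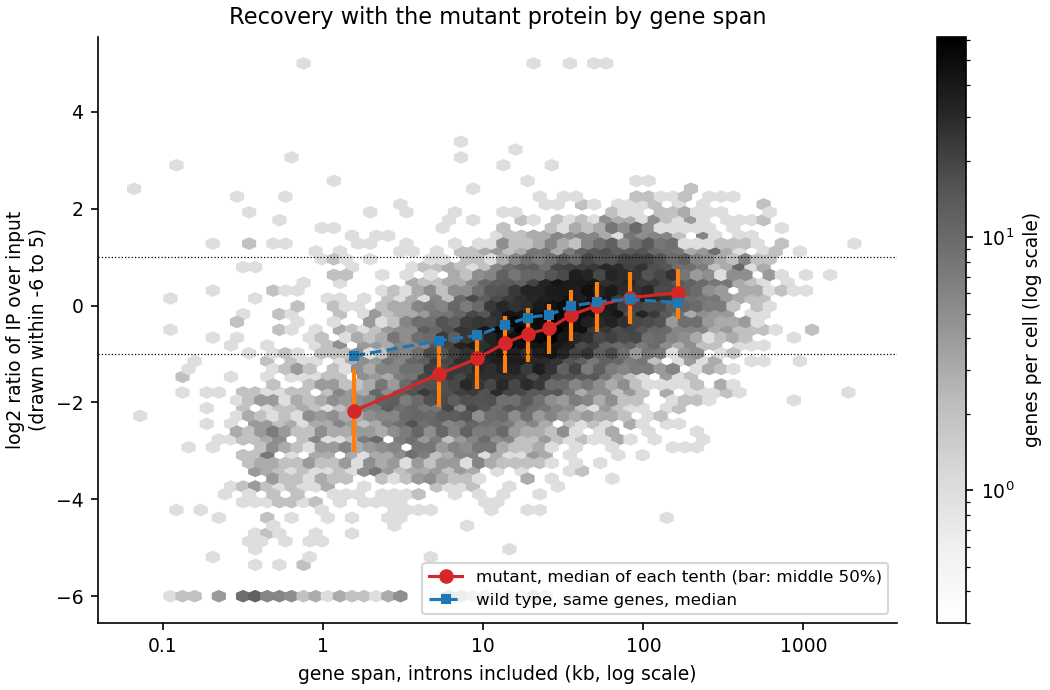
Ratio of IP over input (log2, values past the axis drawn at its edge) against gene span in kb on a log axis, for the 11160 genes (grey cells, darker with more genes); red points are medians of 10 groups of equal size with orange bars for the middle 50% of genes, placed at the median span of the group, and blue squares are wild-type medians of the same genes. The mutant medians go from −2.18 to 0.26 and the wild-type medians from −1.04 to 0.06.

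Some genes stood apart from this order. Igip, a gene of 2.84 kb, had 18.8 FPKM in the IP against 4.50 in the input, 4.18-fold more, and carried 2 peaks. Of the 28 enriched genes in the shortest group, 13 were pseudogenes, 11 noncoding and 4 protein-coding, and 22 lay below 5 FPKM in both libraries, where the ratio is imprecise. At the other end, some genes with very long spans and small protein products were lower. Ndufaf2, an assembly factor of respiratory complex I, spans 156 kb and had 2.59 FPKM in the IP against 19.6 in the input. Bri3, with 202 kb, stood at 3.51 and 26.3. Mrps28, Chchd6 and Chchd3, which encode mitochondrial proteins, were 3.91-fold to 6.73-fold lower with spans of 122 to 269 kb.

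Gene classes differed in the same direction as their spans. The 10369 protein-coding genes had a median ratio of −0.48, with 561 enriched and 3294 lower (31.8%). The 407 noncoding genes had a median of −1.46 and a median span of 6.84 kb, with 27 enriched and 253 lower (62.2%). The 384 pseudogenes had a median of −2.35 and a median span of 0.615 kb, with 17 enriched and 298 lower (77.6%). Above the median of their span group lay 5250 protein-coding genes (50.6%), 180 noncoding genes (44.2%) and 150 pseudogenes (39.1%). Terc, the RNA component of telomerase, was listed at 0 in the mutant IP and at 12.5 in its input, and 87 of the 11160 genes were listed at 0 in the IP against 5 in the input. Malat1, an abundant nuclear noncoding RNA, was 4.19-fold lower in the mutant IP (65.1 against 273 FPKM), while the wild-type libraries held 309 and 332. Pseudogenes share sequence with their parent genes, so part of their reads may belong elsewhere.

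Noncoding genes that host small nucleolar RNAs were lower without exception. All 18 listed, among them Snhg12 (1.05 FPKM in the IP against 12.2 in the input), Snhg6 (4.52 against 46.1) and Epb41l4aos (2.18 against 23.2), were at least 2-fold lower, with a median of −2.59. None of the 18 lay above the median of genes of like span, whereas by construction 50% of the 11160 genes do. These transcripts are short, spliced and carry small nucleolar RNAs in their introns. Their median in the wild type was −0.98, with 9 lower.

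Families of genes, defined by symbol, separated widely. Of 50 families, 5 had a median at least 2-fold above input and 18 at least 2-fold below, and 27 lay above the median of all genes. Centring on that median would turn the sign of 8 families that lay between it and 0, among them the Rab GTPases, the aminoacyl-tRNA synthetases and the DEAD and DEAH box helicases. The family counts that follow are to be read against the 5.42% of all genes called enriched and the 34.5% called lower.

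The phosphatidylinositol 3-kinase-like kinases, giant protein kinases of DNA damage, growth and RNA surveillance, had the highest family median, 2.23. All 6 were enriched. Atm, which signals DNA breaks, had 58.1 FPKM in the mutant IP against 9.95 in its input, and 14.7 against 6.15 in the wild type. Prkdc, the catalytic subunit of the DNA end-joining kinase, stood at 20.6 and 3.89, and at 11.5 and 4.65 in the wild type. Smg1, a kinase of nonsense-mediated decay, stood at 126.5 and 27.6, and at 44.5 and 20.6. Each of these mutant ratios exceeded the wild-type ratio of the same gene. Mtor, which controls growth, was the lowest of the 6 at 20.8 and 10.2, just past the 2-fold line. The family carried 272 mutant peaks, and its wild-type median was 1.18.

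The lipid transfer proteins of the VPS13 type, long channels that move lipids between membranes, had a median of 1.67, and 5 of 6 were enriched. Vps13a had 86.8 FPKM in the IP against 17.6 in the input, Vps13b 56.5 against 13.5, Vps13c 35.0 against 10.6 and Vps13d 32.5 against 10.6. The IP levels of these 4 were between 3.07-fold and 4.93-fold above input.

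The spectrins, plakins, nesprins, filamins and Ahnak proteins, which join the cytoskeleton to membranes, junctions and the nucleus, had a median of 1.34. Of 17, 13 were enriched and 0 lower, and together they carried 674 peaks. Ahnak, a giant scaffold, had 1420 FPKM in the IP against 292 in the input, the highest IP level of all 11160 genes, and 701 against 409 in the wild type. Macf1, which links actin and microtubules, stood at 237 and 51.02, and at 96.6 and 56.8 in the wild type. Syne2, a nesprin of the nuclear envelope, stood at 138 and 28.6, and at 37.02 and 25.7. In these 3 genes the mutant fold was 4.65 to 4.86, well above the wild-type fold, and the wild-type median of the family was 0.13.

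Other families of large proteins followed. Both cytoplasmic and ciliary dynein heavy chains in the list were enriched, Dync1h1 from 68.8 to 229 and Dync2h1 from 2.51 to 11.5. The DOCK exchange factors, which activate small GTPases, had 5 of 7 enriched and a median of 1.05. The HECT ubiquitin ligases had 9 of 23 enriched and 0 lower, with a median of 0.87. Herc2 had 55.1 FPKM in the IP against 11.7 in the input and Huwe1 230.3 against 64.3, while the rest of the family lay within 2-fold. Of 42 ubiquitin-specific proteases 9 were enriched, with Usp9x at 156 and 33.5. Of 20 myosins 5 were enriched and 2 lower, and the 6 collagen genes had a median of 0.42 with none called either way.

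At the low end, mRNAs of abundant small proteins dominated. Of 84 cytosolic ribosomal protein genes 78 were lower and 1 enriched, with a median of −2.66. Oxidative phosphorylation had 80 of its 91 nuclear genes lower and 0 enriched, with a median of −2.62. Of 79 mitochondrial ribosomal protein genes 66 were lower, and of 63 replication-dependent histone genes 62 were, with medians of −2.03 and −2.83. Histone genes have near-identical copies that can share reads, and their mRNAs lack the poly(A) tail for which mRNA library kits usually select. Whether either bears on these ratios was not tested. All 10 tubulin genes and all 16 metallothionein and glutathione transferase genes were lower, and 9 of 10 S100 genes, which encode small calcium-binding proteins, were lower with a median of −2.84. S100a10 had 32.5 FPKM in the IP against 251 in the input, and Tuba1b 62.7 against 233.

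Span did not order the low families fully. The ubiquitin-conjugating enzymes have a median span of 30.4 kb, longer than that of all genes, yet 19 of 32 were lower and 6 lay above the median of genes of like span. Ube2c, which works with the anaphase-promoting complex, had 21.8 FPKM in the IP against 173 in the input. The nuclear genes of oxidative phosphorylation and the mitochondrial ribosomal protein genes, too, had 14 of 91 and 15 of 79 above the median of genes of like span.

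All 13 mitochondrially encoded mRNAs listed were lower in the mutant IP, with ratios from −3.74 to −1.30. Of the 13, however, 9 lay above the median of genes of like span. The group with the shortest spans had a median of −2.18, with 81.5% of its genes lower. Mt-Co3, subunit 3 of cytochrome oxidase, stood at 1.99 in the mutant IP and 26.6 in its input, against 65.6 and 28.2 in the wild type. For mt-Co2 the 4 levels were 6.29, 83.04, 59.2 and 85.7. The mutant IP was thus the lowest library for both, while the inputs lay close to each other. The mutant median of the family was −2.04 and its wild-type median 0.66, the mutant list held 0 peaks on the mitochondrial genome and the wild-type list 13. Nuclear copies of mitochondrial genes can share these reads: Gm28437, an unprocessed pseudogene, stood at 2.58 and 43.2 in the mutant and at 92.4 and 33.6 in the wild type.

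The zinc finger genes named Zfp, the largest family with 273 members, had a median of 0.14 (0.66 after centring), with 33 enriched and 23 lower. Their median span of 18.3 kb is below that of all genes, yet 230 of the 273 (84.2%) lay above the median of genes of like span. In each of the 10 span groups their median exceeded that of the whole group, for example 0.53 against −0.58 for spans of 16.1 to 22.3 kb. Zfp871 had 60.1 FPKM in the IP against 13.9 in the input and Zfp758 6.62 against 1.71, whereas Zfp511 was lower with 3.63 against 18.6. Their median input level was only 4.15 FPKM, and their wild-type median was 0.34. A position above genes of like span was also common among DEAD and DEAH box helicases (39 of 49), aminoacyl-tRNA synthetases (26 of 34) and hnRNP and SR proteins (23 of 30), 3 groups whose products handle RNA and whose own medians lay between −0.60 and 0.00.

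**Figure D3:**
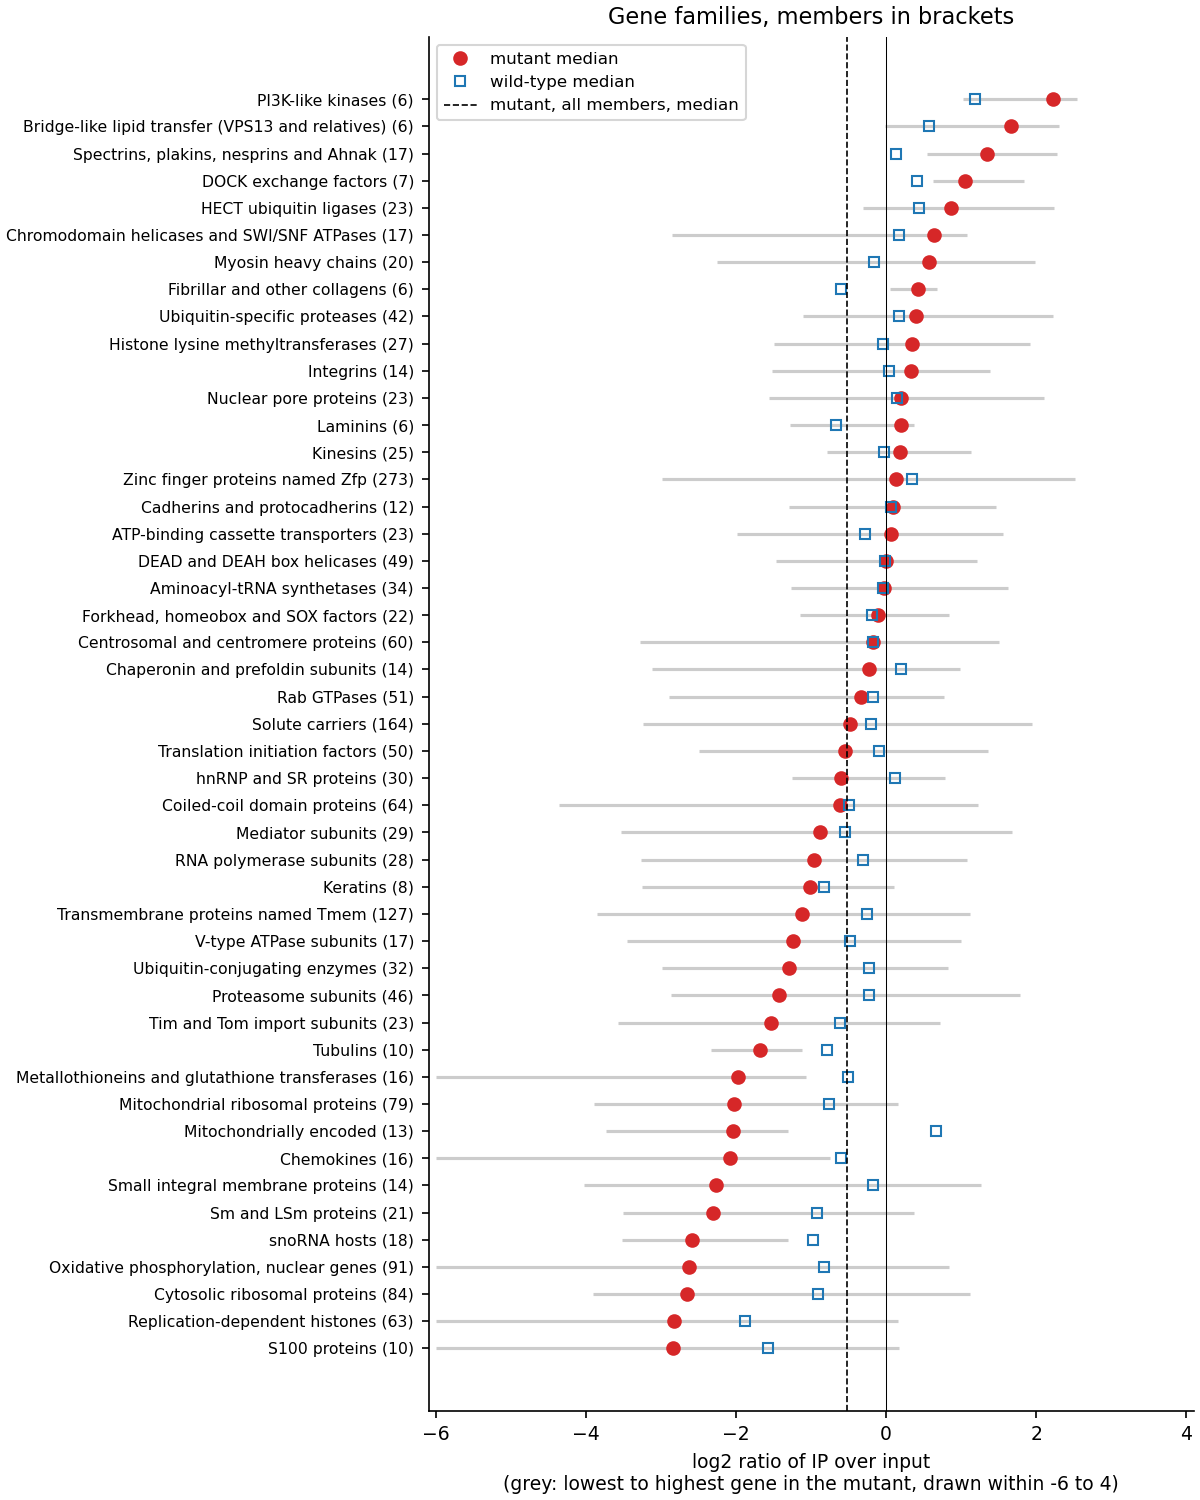
Median ratio (log2 of IP over input) of families with at least 5 genes, mutant as red points and wild type as blue squares, with a grey line from the lowest to the highest gene in the mutant (cut at the axis), 1 library per group and no error bars. Families of giant proteins lie at the top, from 0.87 to 2.23, and ribosomal, respiratory, histone and S100 genes at the bottom, below −2; the dashed line marks the median of all 11160 genes, −0.53.

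Of the 15931 mutant peaks, 15320 (96.2%, exact 95% interval 95.9 to 96.5) had their summit inside a gene on the same strand. Protein-coding genes held 15189 of them, noncoding genes 121 and pseudogenes 10. Peaks had a median width of 255 bases and a lowest of 200, and 919 were at least 1000 bases wide. The authors' fold at the summit had a median of 4.22. The intervals of shares of peaks cover counting error only.

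In total 2493 genes carried a mutant peak, 2480 of the 11160 examined (22.2%) and 13 below a level of 1. The wild-type list put peaks in more genes, 3379, but fewer in each. In the mutant list the median was 3 peaks per gene with a peak, 404 genes had 10 or more and these held 8713 peaks (56.9%). In the wild-type list the median was 2, and 197 genes had 10 or more, holding 26.5% of peaks in genes. There were 1737 genes with a peak in both lists, 69.7% of the mutant genes and 51.4% of the wild-type genes. At least 50 peaks were found in 28 genes of the mutant list and in 1 gene of the wild-type list, where the highest number was 51.

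The 12 genes with the most mutant peaks were Syne1 with 135, Syne2 with 106, Dst with 90, Ubr4 with 87, Macf1 with 85, 4932438A13Rik with 79, Mdn1 with 77, Mycbp2 with 76, Herc2 with 72, Huwe1 with 71, and Birc6 and Utrn with 69 each. Most encode nesprins, cytoskeletal linkers, giant ubiquitin ligases and, for Mdn1, an ATPase of ribosome assembly. Syne1 (chr10:5020917-5551482) had 44.6 FPKM in the mutant IP against 10.95 in its input, and 23.7 against 14.5 in the wild type, where it carried 18 peaks. Its 135 mutant peaks covered 40864 of its 530566 bases, with a median distance of 2096 bases between neighbouring summits, and 17 of them overlapped a wild-type peak. Ubr4 stood at 150.8 and 39.96 in the mutant and at 55.6 and 43.2 in the wild type, with 10 wild-type peaks. Mdn1 carried 5 peaks in the wild type, with 7.71 FPKM in the IP and 4.86 in its input, and the mutant held 32.5 and 7.44. All 12 genes had more peaks in the mutant list, and the number of peaks in a list moves with depth and level, which differed.

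The ratio and the number of peaks went together. Genes without a peak had a median ratio of −0.85, genes with 1 peak 0.23, with 2 to 4 peaks 0.51, with 5 to 9 peaks 0.80, with 10 to 49 peaks 1.12 and with 50 or more 2.01. All 28 genes of the last group were enriched, and 537 of the 605 enriched genes (88.8%) carried a peak. Peaks and levels come from the same IP library, so these measures are not independent. Of the 68 enriched genes without a peak, 62 stood below 5 FPKM in both libraries. Only 14 lower genes carried a peak. The one with the most, an entry of Zc3h11a with 13 peaks at 0.432 and 1.22 FPKM, overlaps a longer entry of the same symbol that stood at 98.6 and 28.0 and had received none, so its peaks cannot be given to either entry.

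Peaks were found with higher levels and with longer spans. Across 10 groups of IP level the share of genes with a peak went from 0.358% to 59.8%, and across 10 groups of span from 1.52% to 52.2%. Among genes at 20 FPKM or above in the IP, 26 of 311 (8.36%) in the fifth with the shortest spans carried a peak, and 681 of 831 (81.9%) in the fifth with the longest spans.

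Peaks gathered towards the 3' end of the gene span. The span counts introns, and the places of exons were not available. How much exon sequence each part of the span holds is therefore not known. In protein-coding genes of at least 5 kb, 4502 of 15152 summits (29.7%) lay in the last of 10 equal parts of the span, against 37.6% in the wild-type list. For genes with 1 mutant peak the share was 51.8%, and for genes with 10 or more it was 19.3%. Mutant peaks in the last part were wider, with a median of 352 bases against 238, and had a lower median fold, 3.22 against 4.68. Among the widest were peaks in Ahnak (11780 bases), Ago2 (11203), Plec (11075) and Zfp871 (10684), so that genes with few but very wide peaks, such as Ahnak with 7, are not poor in covered length.

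**Figure D4:**
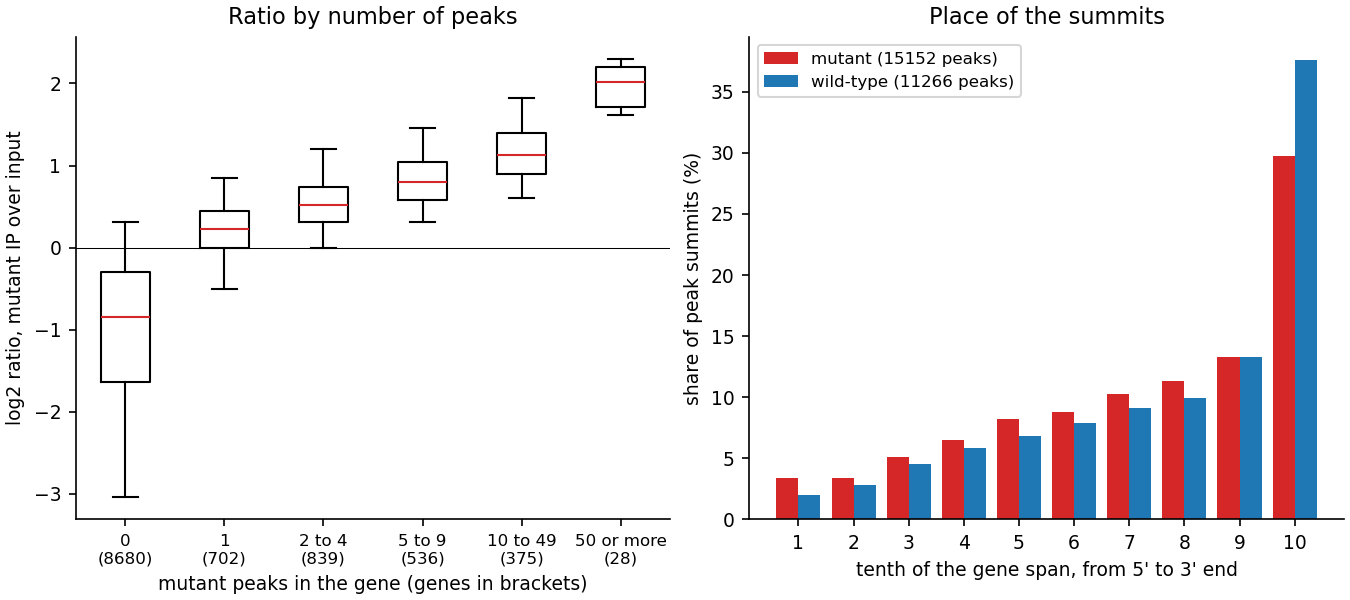
Left, ratio (log2 of mutant IP over input) of genes by their number of mutant peaks, with the number of genes in brackets; boxes hold the middle 50%, red lines are medians (from −0.85 with 0 peaks to 2.01 with 50 or more) and whiskers run from the 5th to the 95th percentile. Right, share of peak summits in each of 10 equal parts of the gene span for the mutant (red) and the wild-type list (blue); the last part holds 29.7% and 37.6%.

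Overlap with the wild-type list, by at least 1 base on the same strand, was less common where peaks were many. Over the whole mutant list the share was 36.2% (35.4 to 36.9), or 5763 of 15931. It was 46.2% (42.5 to 49.9) for genes with 1 mutant peak, 42.3% (41.0 to 43.5) for genes with 2 to 9, and 32.5% (31.5 to 33.5) for genes with 10 or more. By family it was 20.5% (17.5 to 23.7) for the 674 peaks of the spectrins, plakins and nesprins, 39.0% (33.1 to 45.0) for the 272 of the kinases of the Atm type, and 57.9% (49.2 to 66.1) for the 140 of the solute carriers.

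The 3 strongest mutant peaks were present in both lists and did not lie in enriched genes. The first, chr17:39845463-39848162 on the forward strand, had an authors' fold of 2169 and lies at AY036118 and Rn18s-rs5, a locus of ribosomal RNA sequence; the fold of its wild-type counterpart was 2217. The next lay in Cmss1 at chr16:57391113-57391766 (fold 341, wild type 270.2), where a peak of Filip1l lies on the opposite strand (fold 56.2), and both genes were lower in the IP. The third, chr6:3200875-3201569 (fold 285, wild type 330), lies in no RefSeq gene. Below these, the strongest peaks in enriched coding genes lay in Vps13a (fold 43.1), Nipbl (36.5) and Pds5a (35.1), the last 2 of which act on the cohesin complex. Coordinates are those of GRCm38.

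Outside same-strand genes, 367 peaks (2.30%, 2.08 to 2.55) lay opposite a gene and 244 (1.53%, 1.35 to 1.73) outside all genes of the tables, 97 of them in no RefSeq gene. The peaks on the opposite strand were placed across the genes with many peaks: 253 (68.9%) faced a gene with at least 10 peaks, and 262 (71.4%) faced a same-strand peak directly. Syne2 had 34 such peaks, Dst 21 and Macf1 18. In the wild-type list 138 peaks (1.16%, 0.974 to 1.37) lay on the opposite strand only.

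MicroRNA hairpins offered sites of known sequence. Of 1005 mouse hairpins in RefSeq (GRCm38.p6), 14 overlapped a mutant peak on the same strand and 13 lay wholly inside one, each of these 13 in a host gene. The hosts with the most peaks were Syne2, Dst, Cnot1, Itpr1 and Ep400. Hairpins of 4 of these hosts and of the spectrin gene Sptan1 are shown because they give RNA sequence that lies under the peaks, with the mature microRNAs in capitals.

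Mir5101 (Syne2): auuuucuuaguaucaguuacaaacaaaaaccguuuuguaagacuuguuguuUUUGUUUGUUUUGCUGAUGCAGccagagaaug
Mir6896 (Dst): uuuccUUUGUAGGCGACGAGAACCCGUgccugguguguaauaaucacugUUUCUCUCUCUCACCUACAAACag
Mir7073 (Cnot1): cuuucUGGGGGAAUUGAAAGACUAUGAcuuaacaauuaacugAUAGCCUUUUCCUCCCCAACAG
Mir7661 (Itpr1): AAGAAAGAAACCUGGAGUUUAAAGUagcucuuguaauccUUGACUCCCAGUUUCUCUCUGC
Mir6997 (Sptan1): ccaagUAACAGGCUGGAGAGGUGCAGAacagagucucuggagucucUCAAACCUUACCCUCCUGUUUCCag

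Mir5101 lies at chr12:75909103-75909185 in a peak of 667 bases with a fold of 10.2. Mir6896 lies at chr1:34117359-34117431 in a peak of 233 bases with a fold of 9.03. The peaks of Mir7073 (207 bases), Mir7661 (215 bases) and Mir6997 (1043 bases) had folds of 4.02, 5.77 and 3.83. Of these 5 peaks the one at Mir5101 overlapped a wild-type peak. The host Itpr1, a calcium channel of the endoplasmic reticulum, had 30.9 FPKM in the IP against 9.52 in the input, and Cnot1, the scaffold of the main deadenylase, 133 against 59.5. The peaks are wider than the hairpins, which have 61 to 83 bases, so reads of the host transcript and of a hairpin cannot be told apart.

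The letters GGAG occur in 5 of the 14 hairpins under mutant peaks and in 447 of all 1005 (44.5%), counted on the hairpin strand. The let-7 hairpins, the best known RNA partners of Lin28, were not among the 14. RefSeq lists 12 hairpins of the let-7 family, 9 with GGAG, and 0 of the 12 overlapped a mutant peak. Only 14 of all 1005 hairpins did, so 0 of 12 cannot set the let-7 hairpins apart from the others. Kits for mRNA libraries usually select poly(A) RNA, and short precursors carry no poly(A) tail. Whether this kept let-7 precursors out of these libraries was not tested. A pair of let-7 hairpins is given for comparison, with GGAG in capitals.

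Mirlet7g: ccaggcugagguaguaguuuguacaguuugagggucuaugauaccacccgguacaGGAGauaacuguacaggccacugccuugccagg
Mirlet7a-1: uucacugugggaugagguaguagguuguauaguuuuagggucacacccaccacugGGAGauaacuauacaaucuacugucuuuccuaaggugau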

How the data were processed

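RNA was measured by RIP-seq in 4 libraries, 1 per group. Per the labels' protocols, RNA was recovered with anti-Flag beads and sequenced with a stranded mRNA kit. Bedtools, HOMER 4.11.1, HISAT2 2.1.0 and MACS2 2.2.7.1 and the builds mm10 and GRCm38 are named, with no roles, per the submitters' processing notes. The authors' deposited gene tables hold a level for IP and input, with no unit in the header, read as FPKM from the values. The authors also deposited a log2 ratio, a p-value and a q-value per gene; the q-value served as an alternative filter only. The deposited log2 ratio of the mutant table equals that recomputed with a pseudocount of 0.01 to within 1.22e-09. The deposited narrowPeak lists hold a fold at the summit, a score and −log10 q-values per peak; the control of the calling was not given in the sources used here.

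Ratios, medians and counts were computed with pandas 2.3.3 under Python 3.11.15. No test between libraries was made. A peak was given to the gene whose span holds its summit on its strand, named genes and shorter spans first. Families were set by gene symbol. Named genes are the 15 highest and 15 lowest protein-coding, non-predicted genes at 10 FPKM or more, the 12 with most peaks, the genes of the 8 strongest peaks, up to 4 genes per family or noncoding class past 2-fold at 5 FPKM or more, and Lin28b, Actb, Gapdh and Malat1; genes named as exceptions to span, for their classes, in the let-7 passage or beside these were chosen after their values were seen. The members, families and lists were chosen with earlier results of these data known. The depth was inferred from the steps: 96.8% of 310 values in the IP and 97.5% of 120 in the input fell within 0.05 of a whole multiple of the best step. The mutant and wild-type levels come from tables that the authors normalised apart. Some genes are not reported here.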

Additional observations from a re-analysis of the deposited data

Results flagged for a closer look

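The mitochondrially encoded family had a median ratio of −2.04 in the mutant and 0.66 in the wild type. The 6 collagen genes had 0.42 and −0.61, with no gene past 2-fold in the mutant. Mt-Co3 had −3.74 and 1.22, the Sm protein gene Snrpe −2.95 and 1.17, and Gm28437, a nuclear copy of a mitochondrial gene, −4.06 and 1.46. These were singled out because the constructs moved in opposite directions, and the difference was not tested, with 1 library per group. Of the genes that reached a level of 1 for both constructs, 68 had 2-fold calls in opposite directions. Of these, 66 were lower with the mutant and higher with the wild type. That split is to be read against the calls over all genes examined. With the mutant 34.5% were lower and 5.42% enriched, and with the wild type 19.6% and 6.48%.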

How the results depend on the processing

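No paired analysis was possible because each group holds 1 library and the labels carry no replicate numbers, and no library could be left out. The 605 enriched genes became 965 with no filter on low values, 142 at 3-fold and 1728 after centring, and the 3845 lower genes became 2301 at 3-fold and 2416 after centring. With a pseudocount of 1 the counts were 440 and 3082. The median over all genes was −0.45 with a pseudocount of 1, −0.61 with no filter and −0.48 at a level of 5 or above. For the shortest spans it was −1.38 with a pseudocount of 1 and −1.90 for protein-coding genes alone, and for the longest spans 0.34 at a level of 5 or above. By class, a pseudocount of 1 gave −0.41 for protein-coding, −0.76 for noncoding and −1.09 for pseudogenes, and a level of 5 or above gave −2.68 for pseudogenes. The share of peaks inside genes was 98.5% with strand ignored and 97.7% at a −log10 q-value of 10 or above. The share that overlapped a wild-type peak was 32.0% when 50% of the mutant peak had to be covered and 33.3% with the stricter q-value in both lists. No value changed sign among those past 2-fold, for the families and genes named and the settings run. Of 228 named genes, 9 lost the call with a pseudocount of 1 and 23 after centring.

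With 1 library per group no spread is known. Levels, ratios and peaks of the mutant come from the same IP library, and the constructs' inputs differ. Below about 5 FPKM, ratios of short RNAs rest on few reads, and ratios with a level close to the pseudocount depend on it.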
